A study of Homo sapiens with 4 samples.

Results

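Cancer/testis antigen genes are normally expressed in germ cells of the testis and are silent in most adult tissues, where DNA methylation of their promoters is a main part of the silencing. Many tumours switch some of them on, and their proteins are then recognised by T cells and antibodies, which is why they are followed as targets of cancer immunotherapy. Most belong to families of near-identical genes that multiplied along the X chromosome, so a probe often reads several copies at once. The genes described here were all those whose symbol in the array's annotation starts with MAGEA, MAGEB, MAGEC, GAGE, PAGE, XAGE, SSX plus a digit, CT45A, CT47A, CTAG or SPANX, or is CT55. This gave 82 of the 28264 probes of the array, for 58 of 19090 named genes. The same first letters also took in CTAGE genes and SSX2IP, 9 probes of 5 genes that belong to other families and lie on other chromosomes. The remaining 73 probes of 53 genes were the cancer/testis families, and every one of the 53 genes was on the X chromosome in the RefSeq table.

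Huh7 is an established human hepatocellular carcinoma line. Both groups were stable Huh7 cells selected with puromycin, one carrying a scramble short hairpin RNA (shRNA) and the other an shRNA against ACOT12, a cytosolic acetyl-CoA thioesterase, and the stated aim was to find genes downstream of ACOT12. There were 2 single-colour arrays per group, and the sources used here did not say whether the stable cells were a pool or a clone, or whether replicate arrays were made from separate cultures. The p-values below measure only the spread between these arrays, which may be technical, and 0.333 is the smallest two-sided p that an exact permutation of 2 against 2 allows. In the deposited intensity units the array medians were 377 (scramble replicate 1), 395 (scramble replicate 2), 327 (shACOT12 replicate 1) and 451 (shACOT12 replicate 2). The intensities of a probe are given below for replicates 1 and 2 of scramble and then replicates 1 and 2 of shACOT12. The ACOT12 probe read 302 and 178 in scramble and 156 and 207 in shACOT12 cells, so the groups overlapped. The probe was below the background limit described next on all 4 arrays, so it cannot show whether ACOT12 RNA was lowered. All 8 measured hepatocyte markers were above background on all 4 arrays, with summed intensities of 1066483 and 822535 in scramble and 895102 and 842359 in shACOT12 cells.

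The deposited values came without detection flags, so a background was set on the same arrays. A probe was called on when its intensity exceeded the 95th percentile of the 374 olfactory receptor probes of that array on all 4 arrays, since olfactory receptor genes are mostly silent outside sensory tissue. That limit was 2187 and 2459 in scramble and 2256 and 2922 in shACOT12 cells, and 73.3% to 76.1% of all probes were at or below it. Of all probes with a symbol, 23.2% were on. A probe's brightness depends on its own sequence as well as on the RNA, so the call sets each probe against the limit and gives no order of expression between genes. By a laxer mark, the median of all probes of an array, 12 of the 82 member probes and 45.9% of all probes were above it on all 4 arrays.

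Only 2 of the 82 member probes were on in Huh7, against the 23.2% of all named probes and 21.1% of the other 950 probes of X-linked genes. They were the single probe of PAGE1 and 1 of the 2 probes of CTAGE1, CTAGE1 being a member by its first letters alone. A further 3 probes, all of CT45A2, were above the limit on both shACOT12 arrays and on neither scramble array, where 6.1% of named probes were above it on 1 to 3 arrays. The other 77 probes were below it on every array. By family, the on or partly on genes were thus PAGE1 in PAGE and CT45A2 in CT45A, and the MAGEA, MAGEB, MAGEC, GAGE, XAGE, SSX, CT47A, CTAG, SPANX and CT55 families had 0 probes above the limit on any array. Judged by each probe's highest ratio to the limit of its array, the nearest above it was CT45A2 probe PH_hs_0049690, at 1.74 times. The nearest below it was PAGE5 probe PH_hs_0045543, at 0.647 times. On shACOT12 replicate 1 the CT45A2 probe was closer to the limit, at 2742 beside 2256.

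**Figure D1:**
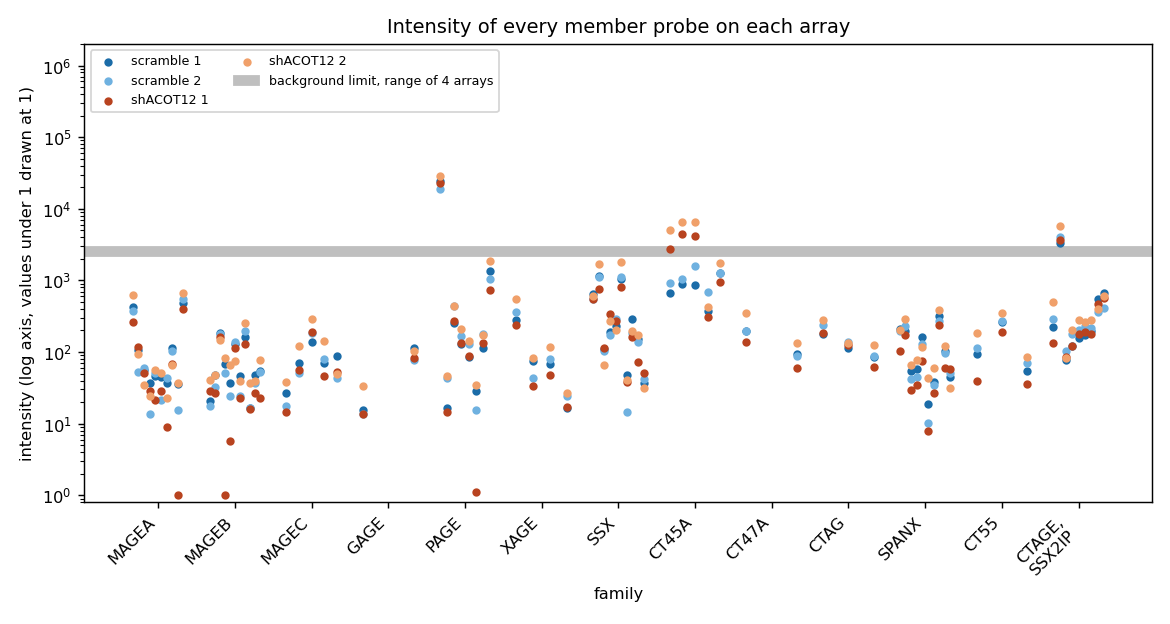
Intensity (log axis) of every member probe on each of the 4 arrays, by family, with probes side by side in alphabetical order of gene. The grey band is the background limit over the 4 arrays, 2187 to 2922, and the probes of PAGE1, CT45A2 and CTAGE1 are the only ones with points above it.

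A probe below the limit does not show that its gene is silent. The type II MAGE genes, relatives such as MAGED1 and MAGED2 that are known to be expressed in most tissues, gave a check. All 10 of the measured type II genes were below the limit on every array, with MAGED2 at 187 and 228 in scramble and 156 and 267 in shACOT12 cells. The statements on dim families below are therefore about these probes at this limit.

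The upstream regions of a few genes show what the bright member and the CT45A copies look like at the start of the gene. These are RefSeq windows on GRCh38.p14 from 250 bases before to 50 bases after a start, printed in the direction of the gene, with each CG pair in capitals because CG pairs are the sites of the DNA methylation known to silence this gene class. PAGE1 (chrX:49695935-49696234, minus strand) is shown as the bright member, and PAGE4 (chrX:49829010-49829309, plus strand, 1 of 2 listed starts) as its next measured neighbour, whose probe was dim.
PAGE1: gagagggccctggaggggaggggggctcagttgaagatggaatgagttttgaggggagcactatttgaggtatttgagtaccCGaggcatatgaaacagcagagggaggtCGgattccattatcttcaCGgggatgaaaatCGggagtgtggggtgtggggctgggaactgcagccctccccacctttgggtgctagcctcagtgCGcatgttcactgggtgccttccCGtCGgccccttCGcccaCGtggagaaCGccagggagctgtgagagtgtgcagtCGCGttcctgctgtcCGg
PAGE4: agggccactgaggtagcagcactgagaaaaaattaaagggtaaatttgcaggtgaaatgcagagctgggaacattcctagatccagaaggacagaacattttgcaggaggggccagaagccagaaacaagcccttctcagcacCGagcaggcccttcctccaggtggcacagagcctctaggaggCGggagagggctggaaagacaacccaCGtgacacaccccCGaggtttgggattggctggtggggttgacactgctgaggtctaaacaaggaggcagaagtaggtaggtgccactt
The PAGE1 window held 13 CG pairs and this PAGE4 window 4, where 51.7% of all 35116 windows held at least 13 and 75.5% at least 4. Over the 56 windows listed for 41 of the 53 family genes the median was 10 CG pairs, against 14 over all windows, and 100% of the former and 96% of the latter held at least 1. GAGE1, whose 2 probes were dim, also had 13 CG pairs in each of its windows. Whether the count of CG pairs bears on the brightness of a member was not tested.
The second pair shows windows of 2 copies of CT45A. CT45A2 was not matched in the table, and the windows of CT45A7 (chrX:135837030-135837329, minus strand) and CT45A10 (chrX:135888847-135889146, minus strand, 1 of 2 listed starts) are given for the family.
CT45A7: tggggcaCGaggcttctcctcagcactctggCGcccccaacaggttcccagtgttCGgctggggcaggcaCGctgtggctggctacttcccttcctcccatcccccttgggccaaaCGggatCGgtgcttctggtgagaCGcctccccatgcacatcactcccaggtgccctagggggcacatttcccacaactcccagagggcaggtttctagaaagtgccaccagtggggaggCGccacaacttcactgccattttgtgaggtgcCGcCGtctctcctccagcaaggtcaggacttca
CT45A10: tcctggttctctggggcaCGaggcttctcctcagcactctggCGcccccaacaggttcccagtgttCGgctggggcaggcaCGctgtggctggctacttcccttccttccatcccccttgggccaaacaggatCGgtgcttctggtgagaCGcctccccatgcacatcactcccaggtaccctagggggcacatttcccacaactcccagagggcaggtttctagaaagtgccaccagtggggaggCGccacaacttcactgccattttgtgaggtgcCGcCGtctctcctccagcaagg
Shifted by 11 bases against each other, these windows matched at 286 of 289 positions, which is 99% identity. CT45A1, another copy, matched CT45A7 at 82.2% of 286 positions. The window at the other listed start of CT45A10 matched CT45A7 at 68.5% of the positions they shared. By the same count it matched CT45A1 at 64.3% and the printed CT45A10 window at 67.5%. All these comparisons used a single shift without gaps. An inserted or deleted base lowers such a share, so the windows may be more alike than it says. Neither CT45A7, CT45A10 nor CT45A1 had a probe under its own symbol here. Probe sequences were not used here, so which copies a CT45A2 probe reads is unknown.

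The member probes with a log2 difference above 2 between the groups were all of CT45A2. CT45 genes encode nuclear proteins of germ cells, and in ovarian cancer the protein has been linked to protein phosphatase 4 and to sensitivity to platinum drugs. CT45A2 was read by 3 probes, and all 3 were 2.20 to 2.50 log2 units brighter in shACOT12 than in scramble cells. None passed the threshold of an adjusted p of 0.05 over the 28264 probes in the fit without a replicate block. With a block on the replicate numbers, to which the labels give no meaning, all 3 passed, as described in the closing section. Probe PH_hs_0062088 read 890.5 and 1053 in scramble and 4480.0 and 6437 in shACOT12 cells. Both shACOT12 arrays lay above both scramble arrays, and at the limit used here only the shACOT12 arrays were above background. Like the other CT45A2 probes, this probe was above the median of all probes on every array. In scramble, 62.1% and 63.7% of all probes were at or below it. Its normalized log2 intensity had a mean ± SD of 9.91 ± 0.12 in scramble and of 12.41 ± 0.34 in shACOT12 cells (n = 2 arrays each), a log2 fold change, shACOT12 minus scramble throughout, of 2.50 (SE 0.31, 95% confidence interval 1.76 to 3.24, limma adjusted p = 0.534).

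Probe PH_hs_0049690 of CT45A2 read 671 and 911 in scramble and 2742 and 5088 in shACOT12 cells, which gave a log2 fold change of 2.29 (SE 0.37, interval 1.41 to 3.17, limma adjusted p = 1). Probe PH_hs_0062273 of CT45A2 read 853 and 1594 in scramble and 4134 and 6573 in shACOT12 cells, which gave a log2 fold change of 2.20 (SE 0.40, interval 1.25 to 3.14, limma adjusted p = 1). The groups did not overlap for either probe. Since the 3 probes were read on the same 4 arrays and may bind the same RNAs, they are not 3 independent measurements. Each interval is for a single probe and, unlike the adjusted p, takes no account of the number of probes tested. The probes were also given a fold change because their differences were large, so these estimates may be too large. Because the scramble arrays were below the limit, the fold against the limit is given as well, and by it CT45A2 was at least 1.66-fold (PH_hs_0049690), at least 2.38-fold (PH_hs_0062088) and at least 2.31-fold (PH_hs_0062273) brighter in shACOT12 cells. For these bounds the mean of the shACOT12 arrays was taken on the normalized log2 scale. It was set against the higher of the limit and the probe's own value on each scramble array. The bounds carry no sampling error, so they hold for the measured means and not for the cells in general. On shACOT12 replicate 1, PH_hs_0049690 had a log2 value of 11.49 beside a limit of 11.22. Hepatocyte markers were compared between the same groups as well. By each gene's brightest probe 3 of the 8 were higher and 5 lower in shACOT12 cells, 0 passed the threshold in limma, and 1 had an unadjusted p under 0.05. That was AFP, at 263048 and 229917 in scramble and 139882 and 155229 in shACOT12 cells (log2 fold change -0.78, limma unadjusted p = 0.0295, adjusted p = 1). The dimmer APOA1 probe, PH_hs_0035488, had a log2 fold change of -0.92 (limma unadjusted p = 0.0238, adjusted p = 1) and the brighter APOA1 probe one of -0.31, and ALB had one of 0.49. Whether these marker values bear on the CT45A2 result was not tested. The arrays read RNA of whole cultures, so more cells with CT45A RNA and more of it per cell cannot be told apart.

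Among all 28264 probes, the CT45A2 probes ranked 6, 12 and 25 by unadjusted p. Only 4 probes, 0.0142%, were at least 2 log2 units brighter in shACOT12 cells without overlap of the groups and had a mean at or above the median of all probes. They were these 3 and 1 probe of HDGFL3, a hepatoma-derived growth factor family gene. Likewise 13 of the probes with a symbol, 0.0502%, of 11 genes, crossed the background limit on both shACOT12 arrays and on neither scramble array, and 3 of them were those of CT45A2. These criteria were set after the values of CT45A2 had been seen, so the shares describe the arrays and test nothing.

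**Figure D2:**
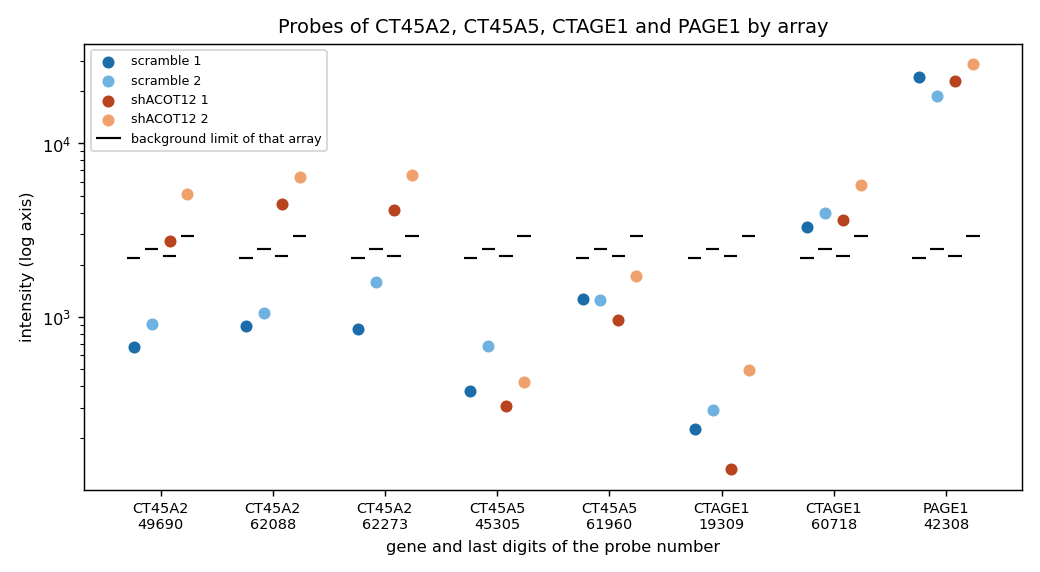
Intensity (log axis) of each probe of CT45A2, CT45A5, CTAGE1 and PAGE1 on the 4 arrays, with a black bar at the background limit of each array. The CT45A2 probes lie below the bars on the scramble arrays and above them on the shACOT12 arrays, whereas the CT45A5 probes lie below on all 4.

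CT45A5, the other CT45A gene with probes, was below background throughout. Its probe PH_hs_0045305 read 372 and 681.5 in scramble and 306 and 423 in shACOT12 cells, and its probe PH_hs_0061960 read 1273 and 1257 in scramble and 959 and 1727 in shACOT12 cells. Both probes had a limma adjusted p of 1. Neither CT45A5 probe crossed the limit, and the difference between the genes was not tested.

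Along the X chromosome, the measured genes on either side of CT45A2 in RefSeq order are CT45A5 and SAGE1, the latter also a cancer/testis gene. SAGE1 read 93.0 and 95.3 in scramble and 112 and 295 in shACOT12 cells. Its groups did not overlap, but all values were far below the background limit, so no fold is given (limma unadjusted p = 0.0293, adjusted p = 1). Farther out, MMGT1, a magnesium transporter gene, read 4556 and 4250 in scramble and 4539 and 3450 in shACOT12 cells. HTATSF1, a transcription and splicing cofactor gene, read 24298 and 23986 in scramble and 24176 and 20773 in shACOT12 cells. ZNF449, a zinc finger gene on the other side, lay between 3288 and 3675 on all 4. Among the 6 measured genes on each side none passed the threshold in limma, with an adjusted p of 1 for each.

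**Figure D3:**
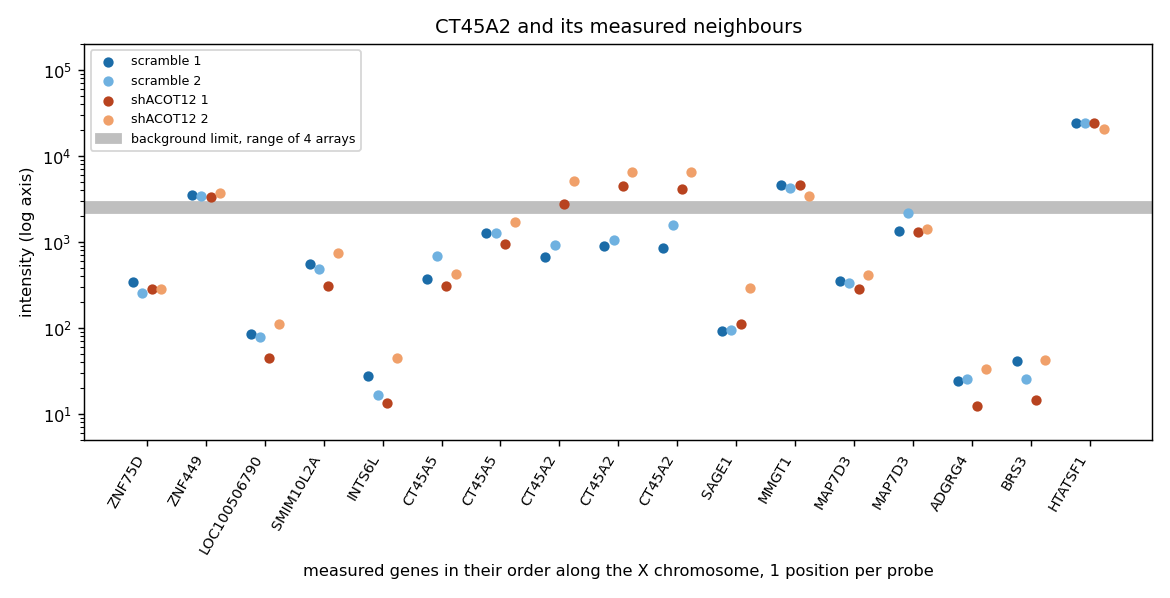
Intensity (log axis) of CT45A2 and of the 6 measured genes on each side, in their order along the X chromosome and not to scale, with 1 position per probe. The band is the background limit, and CT45A2 is the one gene shown whose shACOT12 values were above the limit of their own array and whose scramble values were below theirs.

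PAGE genes encode small, largely disordered proteins related to GAGE. PAGE1 was the bright member of the family on every array. It read 24143 and 18783 in scramble and 23042 and 28645 in shACOT12 cells, and 92.7% to 94.8% of the probes of an array were at or below it. The groups overlapped, and the log2 fold change was 0.23, with a 95% confidence interval of -0.50 to 0.97 and an SE of 0.31 (limma adjusted p = 1). The 6 measured genes on each side of PAGE1 on the X chromosome had 0 probes above the limit. Its neighbours GAGE1 and PAGE4 were dim, GAGE1 with at most 112.5 and PAGE4 with at most 35.0 on any array. The other PAGE genes, PAGE2, PAGE3, PAGE4 and PAGE5, had 7 probes between 1.13 and 1890.4. The top of that range was PAGE5 probe PH_hs_0045543, at 1344 and 1034 in scramble and 746 and 1890.4 in shACOT12 cells, where the other PAGE5 probe stayed between 113 and 177.

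CTAGE1 is an autosomal testis gene of the cTAGE family and is no relative of CTAG1B despite its name. Probe PH_hs_0060718 of CTAGE1 read 3300 and 3976 in scramble and 3640 and 5745 in shACOT12 cells, above the limit on all 4. The groups overlapped, with a log2 fold change of 0.37 (SE 0.33, 95% confidence interval -0.42 to 1.16, limma adjusted p = 1). The second CTAGE1 probe, PH_hs_0019309, was dim, with 226 and 291 in scramble and 132 and 495 in shACOT12 cells, so the call for CTAGE1 rests on 1 of its 2 probes. The other genes taken in by their first letters were CTAGE7P, CTAGE9, CTAGE11P and SSX2IP, the last encoding a protein of centrosomes and cell junctions. They were below background on all arrays, SSX2IP with at most 662.5 (probe PH_hs_0046238).

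The MAGE genes share a domain through which their proteins bind RING ubiquitin ligases. MAGEA1, MAGEA2, MAGEA4, MAGEA6, MAGEA8, MAGEA9, MAGEA10 and MAGEA11 had 10 probes, with intensities from 0 to 676. MAGEA9 was the only MAGEA gene above the median of all probes on all 4 arrays, at 480 and 548 in scramble and 400 and 676 in shACOT12 cells. MAGEB1, MAGEB2, MAGEB3, MAGEB4, MAGEB5, MAGEB6, MAGEB10, MAGEB16, MAGEB17 and MAGEB18 had 11 probes, none above 251. MAGEC1, MAGEC2 and MAGEC3 had 5 probes between 14.7 and 288. Of the ubiquitin ligases known to pair with MAGE proteins, NSMCE1 was on, and TRIM28, TRIM27, LNX1 and PJA1 were below the limit. None of the 5 passed the threshold in limma between the groups.

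SSX proteins are nuclear repressors, known from the SS18-SSX fusions of synovial sarcoma. SSX1, SSX2, SSX3, SSX4, SSX5, SSX7 and the pseudogene SSX6P had 10 probes between 14.7 and 1836. SSX4 read 1045 and 1123 in scramble and 804 and 1836 in shACOT12 cells, and the brighter SSX1 probe, PH_hs_0062218, read 1170 and 1106 in scramble and 766 and 1701 in shACOT12 cells. These SSX probes were above the median of all probes and below the background limit on all 4 arrays, and in both the shACOT12 arrays held the lowest and the highest value. CTAG1B, which encodes the tumour antigen NY-ESO-1, and CTAG2 had 3 probes, none above 281. GAGE1 had 2 probes with at most 112.5, and XAGE1B, XAGE2, XAGE3 and XAGE5 had 4 probes with at most 547. SPANX genes encode proteins of the sperm nucleus, and their 8 measured genes, SPANXB1, SPANXC, SPANXD and SPANXN1 to SPANXN5, had 10 probes with at most 389.9. CT47A7 and CT47A8 stayed at or below 356 and CT55 at or below 347.

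Between the groups, 0 of the 82 member probes passed an adjusted p of 0.05 in limma without a block, where 0.00354% of all probes, 1 of 28264, did. At an unadjusted p under 0.05 there were 5 member probes, against 1.8% of all probes (510). These 5 were the 3 of CT45A2, 1 of GAGE1 and 1 of MAGEA6, the last pair named after their values had been seen. The GAGE1 probe PH_hs_0035724 read 15.7 and 13.7 in scramble and 13.5 and 34.0 in shACOT12 cells, at the bottom of the scale, where the groups overlapped before normalization and not after it, and the other GAGE1 probe had an unadjusted p of 0.888. The MAGEA6 probe PH_hs_0033256 read 37.2 and 44.0 in scramble and 9.03 and 23.0 in shACOT12 cells, and the other MAGEA6 probe, PH_hs_0049582, read 114.5 and 103.5 against 68.8 and 66.0. Both MAGEA6 probes were lower on the shACOT12 arrays without overlap of the groups, but all values were far below the background limit, so no fold is given. The count of 5 rose to 12 (1212 of all probes) without shACOT12 replicate 1 and to 11 (1209 of all probes) without shACOT12 replicate 2. In those fits the spread came from the 2 scramble arrays alone, and the single shACOT12 array was assumed to vary like them.

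Outside CT45A2 the family probes were split between the directions. Of the 70 other family probes, 35 were higher and 35 lower in shACOT12 cells, and their median log2 fold change was 0.0074, beside 0.0057 over all probes. After cyclic loess scaling 32 were higher and 38 lower, with a median of -0.040. All 82 members had a median of 0.043, with 45 higher, where 51% of all probes were higher. On the normalized scale the groups did not overlap for 21 of the 82 member probes, against 21% of all probes, a share near the background. Of the 17 family genes with several probes, the probes of 9 had the same sign of difference. In all 17 the probes of a gene gave the same number of arrays above background, but outside CT45A2 that number was 0. The agreement there means only that all probes lay below the limit, and PAGE1 had no second probe to compare.

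**Figure D4:**
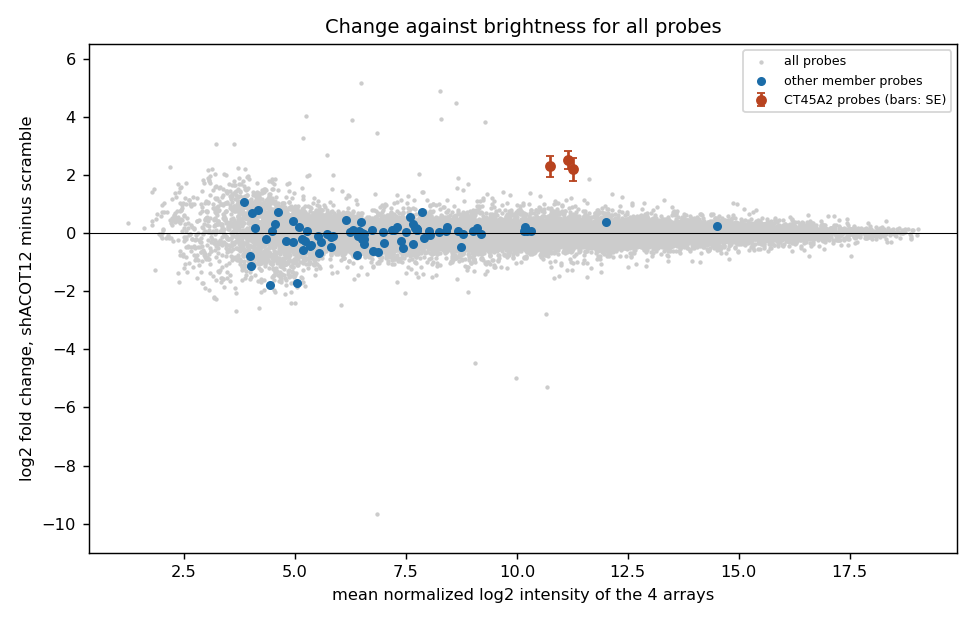
Log2 fold change (shACOT12 minus scramble) against mean normalized log2 intensity for all 28264 probes (grey), the CT45A2 probes (orange, bars are the SE) and the other member probes (blue). The CT45A2 probes lie at 2.20 to 2.50, apart from the grey cloud at their brightness, while the other members lie within the cloud.

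Other cancer/testis genes were measured in the same cells. In this and the other gene lists a gene was called on when any of its probes was on. The 23.2% given above is a share of probes and not of genes, so the gene counts of these lists have no matching background here. Of 45 measured genes from a list of such genes, 7 were on (BRDT, DDX43, SPA17, CT83, PRAME, VCX3B and FTHL17), 3 were partly on and 35 were below background, and 0 passed the threshold in limma between the groups. PRAME, a repressor of retinoic acid signalling, read 30361 and 49124 in scramble and 35149 and 49628 in shACOT12 cells by its brightest probe. Another PRAME probe, PH_hs_0040655, was below the limit on every array, at 112.5 and 124 in scramble and 55.3 and 151 in shACOT12 cells. DDX43, an RNA helicase gene, read 39745 and 34828 in scramble and 38578 and 55422 in shACOT12 cells, and CT83 lay between 11163 and 16829. For each the groups overlapped.

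Genes that are known to keep germline genes silent were mostly on. Of 16 measured repressors 12 were on, among them DNMT1, the maintenance DNA methyltransferase, at 17857 and 14512 in scramble and 16517 and 13328 in shACOT12 cells. UHRF1, which brings DNMT1 to replicated DNA, read 3947 and 2958 in scramble and 3389 and 3101 in shACOT12 cells. SETDB1 was partly on, and DNMT3A, DNMT3B and EHMT1 were below the limit on every array. DNMT3B read 532 and 674 in scramble and 816 and 412 in shACOT12 cells. The brighter DNMT3A probe read 417 and 271 in scramble and 321 and 290 in shACOT12 cells. By each gene's brightest probe 13 of the 16 were lower and 3 higher in shACOT12 cells, and 0 passed the threshold in limma. Their median log2 fold change was -0.13, beside 0.0057 over all probes. The summed intensities of these probes were 154823 and 134632 in scramble and 142441 and 132333 in shACOT12 cells, so the groups overlapped. Whether the repressors differed as a set was not tested. Of 6 factors known to favour germline genes 0 were on and 2 were partly on, and CTCFL, the germline relative of CTCF, read 67.5 and 120.0 in scramble and 161 and 58.0 in shACOT12 cells.

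Markers of cell types in which cancer/testis genes are normally expressed were dim. All 11 measured germ cell markers, among them DDX4, DAZL and PRM1, were below background on every array, with summed intensities of 1325 and 1339 in scramble and 989 and 1672 in shACOT12 cells. The 5 testis somatic markers, the 5 fibroblast markers and the 5 endothelial markers were below it as well. Of 4 measured leukocyte markers CD14 and LYZ were on and PTPRC and CD3E were below background.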

How the data were processed

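The labels' protocols describe Trizol extraction of total RNA, amplification into aminoallyl RNA and labelling with Cy5, so each array carried 1 dye. The intensities used were deposited by the authors on a linear scale, 1 column per sample; scanner, background correction and normalization are not given in the sources used here. Probes were named by the platform annotation, and the symbols of all 82 member probes, of 58 genes, were current in RefSeq. Intensities under 1 were set to 1, converted to log2 and quantile normalized, because array medians differed. limma 3.58.1 (R 4.3.3, lmFit and eBayes) was fitted by probe over 28264 probes without a block, with 2 residual and 4.64 prior degrees of freedom, Benjamini-Hochberg adjustment over all probes and a threshold of 0.05. The fit was tested on simulated data. The on call used the deposited intensities of each array.

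The members, the lists and the rules were chosen with earlier results of these data known. Member genes with a probe on or partly on were named with every value, and those of them with a log2 difference of at least 1 without overlap of the groups also with fold change and SE. All others were given by counts and ranges, except that CT45A5, PAGE5, MAGEA6, MAGEA9, SSX1, SSX4 and a GAGE1 probe were given by array after their values had been seen. The alternatives were other scalings, priors, floors and backgrounds, a replicate block, 1 row per gene, and leaving out each array.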

Additional observations from a re-analysis of the deposited data

How the results depend on the processing

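The log2 fold change of each CT45A2 probe kept its direction under every scaling, prior, filter and floor tried, between 2.16 and 2.51, and without any 1 array, between 1.78 and 2.74. Its adjusted p was above 0.05 in all of these except under a replicate block, and ranged from 0.0193 to 1. With the replicate block 3 member probes passed, those of CT45A2 (adjusted p = 0.0365 for PH_hs_0049690, 0.0193 for PH_hs_0062088 and 0.0375 for PH_hs_0062273), among 13 of all probes against 1 without it. The labels give no meaning to the shared replicate numbers. Deviations of same-numbered arrays correlated at 0.167 over all probes and at 0.270 over those at or above the median, and 2 pairs are too few to settle a pairing. In the other settings 0 member probes passed, and at an unadjusted p under 0.05 the members numbered 4 to 12 without 1 array, where the other group alone supplies the spread and the lone array is assumed to vary like it. Over all probes that count, 510 in the reported fit, was 213 on the unscaled deposited intensities, 248 after scaling to the 75th percentile, 927 with a floor at the 20th percentile, 961 with the block, 293 without the dimmest 30% and 387 to 1212 without 1 array. PAGE1 (0.23) and CTAGE1 (0.37) kept their sign, but without 1 array ranged from 0.061 to 0.406 and from 0.061 to 0.684. The member median ranged from -0.0271 (without scramble replicate 1) to 0.1105 (without shACOT12 replicate 1), so its sign rests on single arrays.

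The number of member probes called on depends on the limit. It was 0 with the 99th percentile of olfactory receptor probes (5.1% of named probes on), where PAGE1 itself no longer passed, 12 with the median of all probes (46.6%), 5 with 2 of 4 arrays (27.1%, adding CT45A2) and 1 without CTAGE genes and SSX2IP. With keratin-associated protein, taste receptor and defensin probes as background, and without any 1 array, it was 2, PAGE1 and CTAGE1. The crossing of CT45A2 depends on the limit too. With that second background the limit on scramble replicate 2 was 1134, and PH_hs_0062273 read 1594 there. With the 99th percentile of olfactory receptor probes the limits, 19979 to 27867, lay above every CT45A2 value. The number of arrays and the unknown copies read by each probe limit all values.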
